A study of Mus musculus with 14 samples.

Results

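The genes described here are 10 of the 21205 genes counted in 555 single cells from mouse YUMM1.7 melanomas, all sorted for the surface profile of cDC1, the conventional dendritic cells that present tumour antigen to CD8 T cells. They are defined by name, for their place in NF-κB feedback and TRAF signalling; the rule uses no measured value, although it was written with earlier results of these data known. The group holds the feedback inhibitors Tnfaip3, Tnip1, Tnip2 and Cyld, and Nfkbiz, which encodes a nuclear IκB protein. It also holds the adaptors Traf1 and Traf3, the kinase gene Map3k14, and the cytokine-inducible genes Icam1 and Tnfaip2. Each of the 14 samples was a plate of cells from 1 tumour of 1 mouse, grown under the skin of the flank of a female mouse. The comparisons ask how these transcripts stand in Ccr7+ against Ccr7- cells of the same tumour, and in tumours of mice with a targeted Ikbkb or Irf1 gene against their controls. Ikbkb encodes the kinase IKKβ, which starts the canonical NF-κB pathway, and Irf1 encodes an interferon-responsive transcription factor.

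The labels name 4 genotypes. Ikbkb_dXCR1 (4 plates, 133 cells; Ikbkb-deleted below) came from 2 mice of 8 weeks and 2 of 6 weeks. Irf1_dXCR1 (5 plates, 223 cells; Irf1-deleted below) and its control Irf1_FF (4 plates, 165 cells) came from mice of 6 weeks. Ikbkb_FF, the control of the Ikbkb experiment, is 1 plate of 34 cells from a mouse of 8 weeks. Because that control has no replicate, the Ikbkb-deleted plates were set against all 5 control plates together (199 cells), called floxed plates here. The Ikbkb plates belong to the experiment labelled M2 and the Irf1 plates to M3, so genotype and experiment cannot be told apart for 4 of these 5 control plates. XCR1 is a chemokine receptor typical of cDC1, and the labels do not say which exons the alleles lack or how complete the deletion was.

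NF-κB is a family of transcription factors held in the cytoplasm by IκB proteins and set free when kinases of the IKK complex mark those proteins for destruction. Receptors of the tumour necrosis factor family reach the kinases through TRAF adaptors and ubiquitin chains, and NF-κB in turn switches on several genes that end its own signal, among them Tnfaip3. In dendritic cells this pathway is known for its part in maturation, when the cells raise Ccr7, the receptor that guides them towards lymph nodes.

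The 250 bases before the RefSeq start (build GRCm38.p6) were searched for κB sites, the letters that NF-κB dimers are known to bind. The κB consensus, searched by name on both strands, occurred in 4 of the 10 member promoters (9 genes, Tnfaip3 with 2 starts), against 3.9% of 32841 promoters of the same length. Those promoters belong to Tnip1, Traf3, Cyld and the farther upstream start of Tnfaip3, and Nfkbiz did not match the promoter table. A looser form, GGG and CC with any 5 letters between them, contains the consensus and occurred in 8 of the 10 member promoters and in 45.81% of all. GGAANTTCC, which reads the same on both strands and was added after the sequences were seen, occurred in the promoters of Icam1 and Tnfaip3 and in 0.81% of all. The promoters of Traf1 and Icam1 are printed because these are the transcripts that passed the test between Ccr7+ and Ccr7- cells, and those of Tnip1, Traf3 and Cyld for their consensus matches. Each runs 5′ to 3′ towards the start, and capitals mark the κB consensus or GGAANTTCC.
Traf1 chr2:34961773-34962022 (minus strand): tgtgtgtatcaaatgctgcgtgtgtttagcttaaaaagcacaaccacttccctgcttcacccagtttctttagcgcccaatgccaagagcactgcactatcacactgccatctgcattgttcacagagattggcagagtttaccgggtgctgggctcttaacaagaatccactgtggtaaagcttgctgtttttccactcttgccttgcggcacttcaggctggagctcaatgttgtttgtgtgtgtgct
Icam1 chr9:21015690-21015939 (plus strand): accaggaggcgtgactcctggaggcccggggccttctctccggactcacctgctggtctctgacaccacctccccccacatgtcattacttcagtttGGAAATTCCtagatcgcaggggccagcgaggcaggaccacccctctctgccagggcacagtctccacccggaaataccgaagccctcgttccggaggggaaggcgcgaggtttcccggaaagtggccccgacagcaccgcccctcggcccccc
Tnip1 chr11:54962941-54963190 (minus strand): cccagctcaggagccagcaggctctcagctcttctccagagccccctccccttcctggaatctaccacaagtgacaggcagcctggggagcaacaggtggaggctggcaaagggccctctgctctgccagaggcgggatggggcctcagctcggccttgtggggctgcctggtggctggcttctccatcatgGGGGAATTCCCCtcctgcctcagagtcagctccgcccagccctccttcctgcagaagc
Traf3 chr12:111166120-111166369 (plus strand): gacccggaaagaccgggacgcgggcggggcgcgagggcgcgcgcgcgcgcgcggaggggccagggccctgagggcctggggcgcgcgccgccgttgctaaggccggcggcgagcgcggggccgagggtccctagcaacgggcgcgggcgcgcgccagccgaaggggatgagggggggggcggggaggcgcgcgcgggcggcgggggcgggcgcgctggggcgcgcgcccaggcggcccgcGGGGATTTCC
Cyld chr8:88696778-88697027 (plus strand): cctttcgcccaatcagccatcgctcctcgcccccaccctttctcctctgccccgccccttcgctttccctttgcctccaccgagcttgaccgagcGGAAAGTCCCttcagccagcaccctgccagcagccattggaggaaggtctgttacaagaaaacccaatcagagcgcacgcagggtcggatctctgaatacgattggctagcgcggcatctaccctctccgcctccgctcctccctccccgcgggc
Traf1, whose transcript had the clearest difference below, held neither the consensus nor its looser form in this window, and neither did Tnip2. In Tnip1 the match GGGAATTCCC is symmetrical and overlaps its neighbours, from 58 to 47 bases before the start. In Traf3 the match GGGGATTTCC ends at the base before the start, and in Cyld GGGACTTTCC lies on the opposite strand, 155 to 146 bases before it. A match of letters describes this window and does not show that a factor binds there.

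Transcripts were counted by unique molecular identifiers (UMIs), and a plate gave between 2810321 and 10120557 of them from 18 to 59 cells; the median cell gave 143476. UMIs were summed over the cells of a plate and are given as CPM, counts per 1000000 UMIs after TMM scaling. Cells with at least 1 Ccr7 UMI (170) were called Ccr7+ and the other 385 Ccr7-. The median depth was 132930.5 UMIs in Ccr7+ and 148177 in Ccr7- cells. Irf8 was found in 69.6% of cells and Xcr1 in 31.7%, while the macrophage marker C1qb was found in 18.6% and the fibroblast marker Col1a1 in 22.9%, so cells with markers of other types were present. Fscn1, a second marker of mature dendritic cells, was found in 55.3% of Ccr7+ and 10.4% of Ccr7- cells. The same 94 well barcodes recur across the plates, because each plate used one set of well tags. Whether a lower sum reflects fewer cells with a transcript or less of it in each cell cannot be told apart from a sum alone, so shares of cells are given below as well.

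In sums over all cells of a plate, every member was found, and the plates of one genotype differed widely. Traf1 had 448 ± 163 CPM (SD, n = 4) in Ikbkb-deleted plates, 534 ± 112 CPM (n = 5) in Irf1-deleted plates and 395 ± 109 CPM (n = 5) in floxed plates. Icam1 had 329 ± 179 CPM in Ikbkb-deleted, 410.2 ± 169 CPM in Irf1-deleted and 457 ± 119 CPM in floxed plates. In both genes the deleted and floxed plates overlapped. The other 8 members had group means between 9.86 CPM, for Tnfaip2 in Ikbkb-deleted plates, and 135 CPM, for Map3k14 in Irf1-deleted plates. Their plate sums rest on few cells. In a plate's Ccr7+ cells with any Tnfaip3, the highest single cell gave a median of 59.0% of the Tnfaip3 UMIs, against 24.6% for Traf1 and 27.2% for Icam1.

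**Figure D1:**
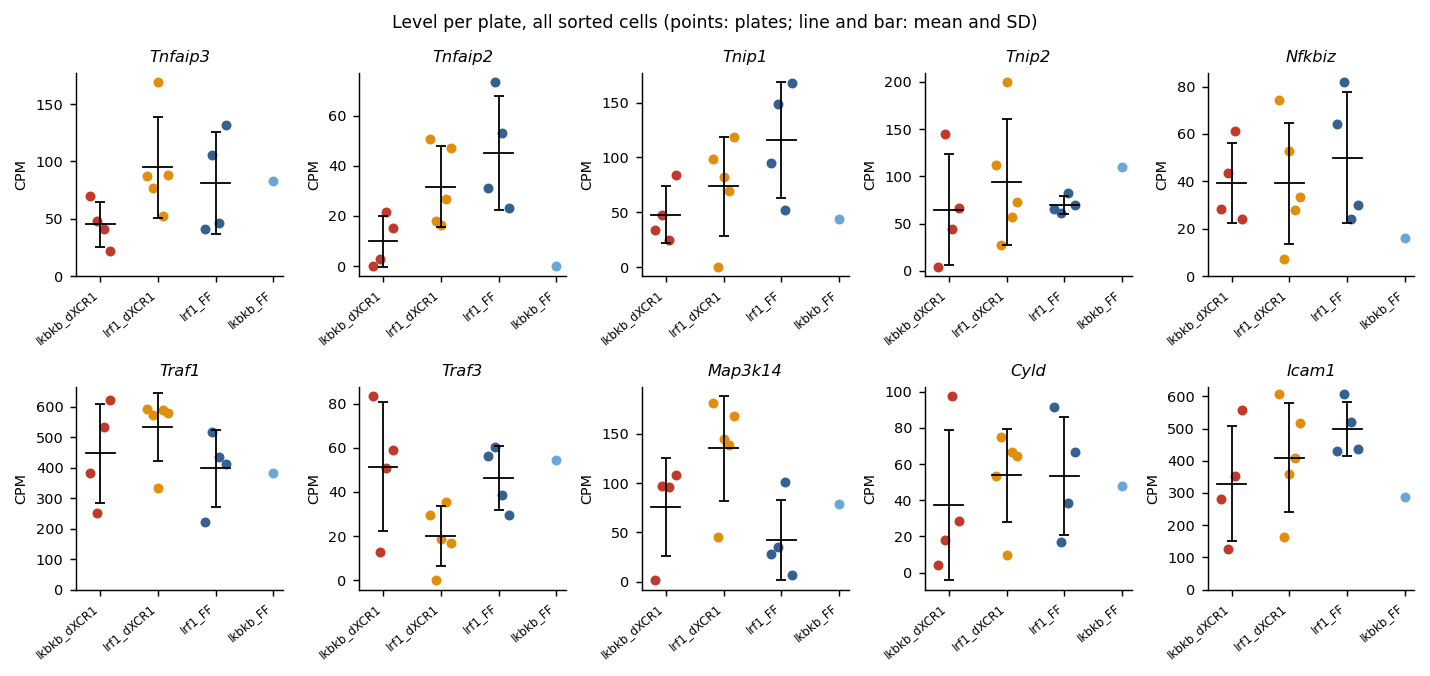
Level of each gene per plate over all sorted cells, in CPM (vertical axis), by genotype; points are plates, and the line and bar give the mean and SD where a group has more than 1 plate. Points of deleted and control plates overlap for all 10 genes, as for Traf1, with 253 to 621 CPM in Ikbkb_dXCR1 plates and 223 to 519 CPM in Irf1_FF plates.

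Between Ccr7+ and Ccr7- cells of the same plates, Traf1 and Icam1 rose and no member fell. Traf1, an adaptor of the tumour necrosis factor receptor family, ranged from 560.3 to 1539 CPM in the Ccr7+ cells of 13 plates, with a median of 1020 CPM, and from 44.9 to 390.2 CPM in their Ccr7- cells, with a median of 222 CPM. The lowest Ccr7+ value lay above the highest Ccr7- value, which held for 0.444% of the 6308 genes tested. The means were 1073 ± 309 CPM in Ccr7+ and 241 ± 96.3 CPM in Ccr7- cells (SD, n = 13 plates), with a log2 fold change of 2.23 and SE of 0.24 (edgeR adjusted p = 2.2e-05). Icam1, an adhesion molecule through which dendritic cells hold T cells, ranged from 251.5 to 1223 CPM (median 776) in Ccr7+ cells and from 107 to 514 CPM (median 298) in Ccr7- cells. It was higher in the Ccr7+ cells of 12 of 13 plates, and the exception was the Ikbkb_FF plate, with 251.5 CPM in its 8 Ccr7+ cells and 310.4 CPM in its 26 Ccr7- cells. The log2 fold change of Icam1 was 1.36 ± 0.23 (edgeR adjusted p = 0.00136). With 2 of 10 members called, all higher, the background was 442 of 6308 genes called (7.01%), of which 157 were higher (2.49%) and 285 lower (4.52%). One Ikbkb-deleted plate had 4 Ccr7+ cells and was left out of this comparison, which asks for at least 5 in each class.

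The scale of this contrast is not centred on 0. The median fitted log2 fold change over all 6308 genes was -1.1, and the median log2 ratio of mean CPM was -0.32; among 1748 better covered genes these were -0.33 and -0.17. The median of the 10 members was 1.41, with 8 above 0. Traf1 and Icam1 passed in all 22 alternatives of this comparison, with log2 fold changes of 2.09 to 2.63 and 1.28 to 1.63. The 8 fibroblast and endothelial markers summed to a median of 23.5 CPM (0 to 3613) in Ccr7+ cells and 1355 CPM (64.5 to 8132) in Ccr7- cells, and 4 of the 5 tested fell. The 10 macrophage markers summed to a median of 330.1 CPM (0.782 to 2206) in Ccr7+ and 548 CPM (107 to 4524) in Ccr7- cells. Against only those Ccr7- cells that held a UMI of the cDC1 markers Xcr1 or Clec9a, the differences were as large, 2.24 for Traf1 (edgeR adjusted p = 1.39e-05) and 1.63 for Icam1 (adjusted p = 0.00606).

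The A20 group differed less clearly. Tnfaip3, which encodes the ubiquitin-editing enzyme A20, ranged from 29.0 to 525 CPM (median 142) in Ccr7+ and from 0 to 97.9 CPM (median 34.0) in Ccr7- cells, and it was higher in the Ccr7+ cells of 12 of 13 plates. The exception was an Irf1-deleted plate with 62.8 CPM in Ccr7+ and 97.9 CPM in Ccr7- cells. The log2 fold change of Tnfaip3 was 2.61 ± 1.06 and did not pass (edgeR adjusted p = 0.140, unadjusted p = 0.0243). Tnip1, whose product ABIN1 binds A20, ranged from 0 to 468 CPM (median 139.9) in Ccr7+ and from 0 to 147 CPM (median 51.0) in Ccr7- cells. It was higher in Ccr7+ cells of 11 plates, lower in 1 and at 0 in both classes of another, and its log2 fold change was 1.46 ± 0.65 (edgeR adjusted p = 0.176). Tnip2, whose product ABIN2 also binds A20, had medians of 75.2 CPM in Ccr7+ and 72.5 CPM in Ccr7- cells. Its log2 fold change was 0.20 with a 95% interval of -2.05 to 2.44, so a difference of up to several-fold either way was not detectable at this depth.

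Traf3 and Map3k14 encode the adaptor that keeps the kinase NIK low and NIK itself, the kinase of the non-canonical NF-κB pathway. Traf3 ranged from 0 to 149 CPM (median 77.1) in Ccr7+ and from 0 to 73.7 CPM (median 21.3) in Ccr7- cells. It was higher in the Ccr7+ cells of 12 plates and at 0 in both classes of the other plate. Map3k14 ranged from 0 to 468 CPM (median 166) in Ccr7+ and from 0 to 137 CPM (median 24.8) in Ccr7- cells, and was higher in the Ccr7+ cells of 11 of 13 plates. Neither passed: the log2 fold changes were 2.65 ± 1.37 for Traf3 (edgeR adjusted p = 0.234) and 1.94 ± 0.98 for Map3k14 (adjusted p = 0.224). Map3k14 did pass when only plates with at least 10 cells of each class entered (2.39, adjusted p = 0.0322).

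Cyld, a deubiquitinase that removes the chains on which NF-κB signalling rests, lay on the other side. It ranged from 0 to 122 CPM (median 16.1) in Ccr7+ and from 6.66 to 110.4 CPM (median 59.8) in Ccr7- cells, and was lower in the Ccr7+ cells of 12 of 13 plates. Its log2 fold change was -2.21 ± 1.05 (edgeR adjusted p = 0.200), to be read beside the median of -1.1 over all genes. Tnfaip2, a gene induced by tumour necrosis factor, had medians of 0.971 CPM in Ccr7+ and 30.1 CPM in Ccr7- cells, and its estimate of -2.20 ± 1.89 on the log2 scale did not pass (adjusted p = 0.467). Nfkbiz, which encodes the nuclear IκB protein IκBζ, was higher in the Ccr7+ cells of 6 plates and lower in those of 7, and its 95% interval ran from -2.75 to 2.91 on the log2 scale (adjusted p = 0.974).

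The tool decided the calls of 5 members. DESeq2 called 7 of the 10 members and 2409 of the 6308 genes, where edgeR called 2 members and 442 genes (7.01%). The 7 members are to be read beside that large share of all genes. It added Tnfaip3 (adjusted p = 0.00117), Tnip1 (0.00815), Traf3 (0.00969), Map3k14 (0.0159) and Cyld (0.00824), with log2 fold changes close to those above. Tnip2, Nfkbiz and Tnfaip2 passed under neither tool.

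**Figure D2:**
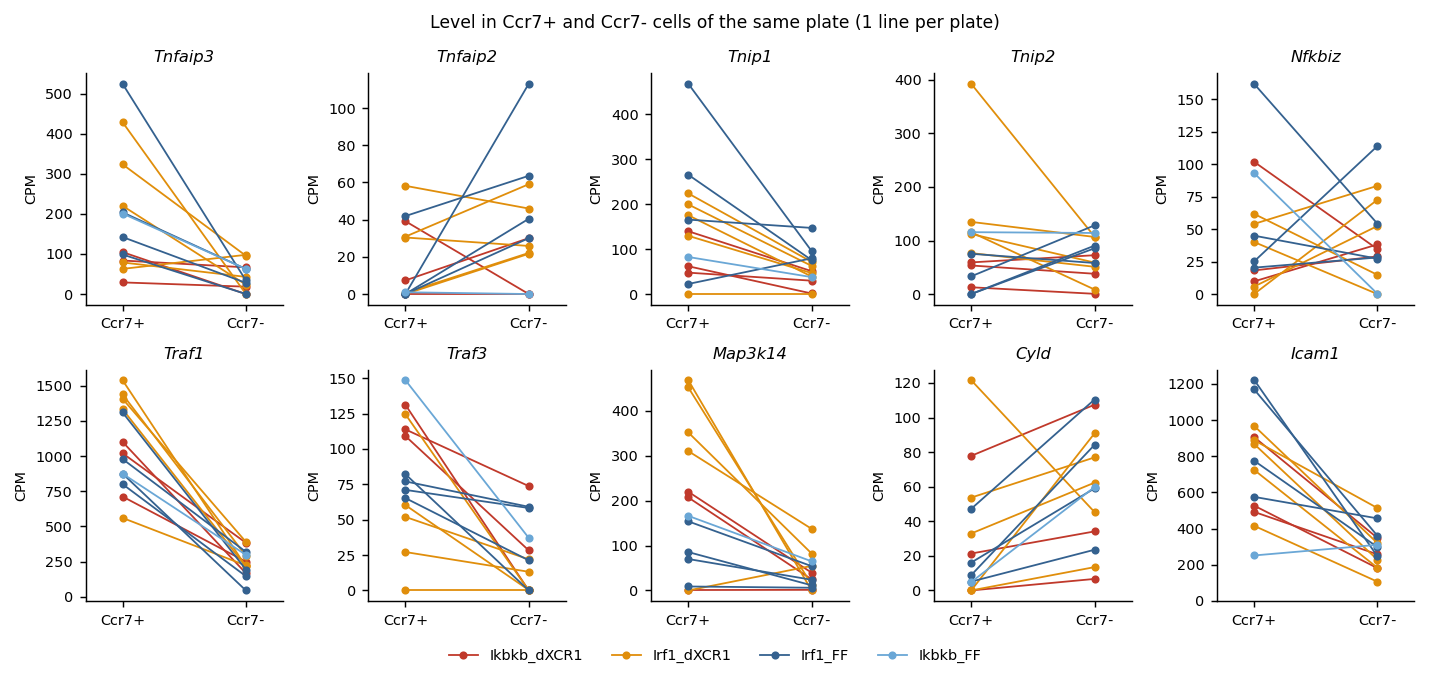
Level in CPM (vertical axis) in the Ccr7+ and the Ccr7- cells of each of 13 plates, 1 line per plate, coloured by genotype. For Traf1 all 13 lines run downwards from Ccr7+ to Ccr7-, for Icam1 12 of 13, and for Cyld 12 of 13 run upwards.

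Shares of cells with a transcript also differed between the classes. After each cell was thinned to 50000 UMIs, which left out 35 Ccr7+ and 67 Ccr7- cells, Traf1 was found in 83.7% of 135 Ccr7+ cells and 43.4% of 318 Ccr7- cells. Icam1 was found in 68.9% of Ccr7+ and 37.7% of Ccr7- cells. Map3k14 was found in 37.8% of Ccr7+ and 11.6% of Ccr7- cells, Tnip1 in 35.6% of Ccr7+ and 15.4% of Ccr7- cells, Tnfaip3 in 32.6% of Ccr7+ and 9.75% of Ccr7- cells, and Traf3 in 20% of Ccr7+ and 5.66% of Ccr7- cells. Cyld was found in 14.8% of Ccr7+ and 18.9% of Ccr7- cells, and Tnip2 in 18.5% of Ccr7+ and 18.9% of Ccr7- cells. Nfkbiz was found in 14.1% of Ccr7+ and 10.4% of Ccr7- cells, and Tnfaip2 in 6.67% of Ccr7+ and 9.12% of Ccr7- cells. Without thinning, Traf1 was found in 79.4% of Ccr7+ and 42.3% of Ccr7- cells, and Icam1 in 61.2% of Ccr7+ and 34.8% of Ccr7- cells. Counts above 0 had a median of 64 UMIs over all genes and cells. Thinning to 50000 UMIs therefore removes few detections, and it can say little about the effect of depth. Among cells with any Traf1, the median count was 184 UMIs in Ccr7+ and 62 UMIs in Ccr7- cells. Both the share of cells and the UMI count per such cell were thus higher. Whether these counts equal numbers of molecules was not tested. For Tnfaip3 the median counts were 45.5 UMIs in Ccr7+ and 56 UMIs in Ccr7- cells, so there the share differed and the median count was not higher. The totals were 3930 UMIs in 50 Ccr7+ cells and 2520 UMIs in 39 Ccr7- cells with Tnfaip3. By these totals the mean per such cell was higher in Ccr7+ cells, so the direction depends on the measure. Cells of a plate are not replicates, and these shares carry no test. A Ccr7+ cell held a median of 3 of the 10 transcripts and a Ccr7- cell a median of 1, while 8.82% of Ccr7+ and 20.8% of Ccr7- cells held none.

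**Figure D3:**
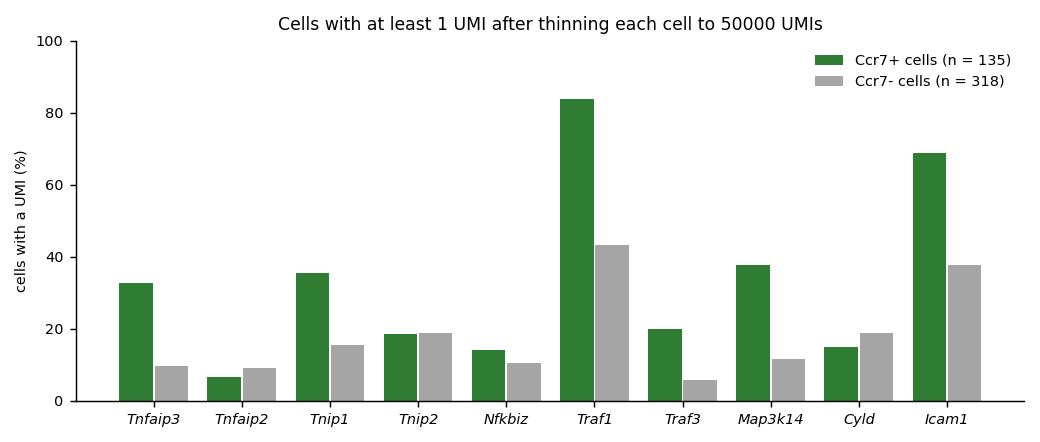
Share of cells with at least 1 UMI of each gene (vertical axis, percent) after thinning to 50000 UMIs per cell, in 135 Ccr7+ (green) and 318 Ccr7- (grey) cells pooled over plates. The bars of Traf1 stand at 83.7% in Ccr7+ and 43.4% in Ccr7- cells, while those of Tnip2 stand at 18.5% in Ccr7+ and 18.9% in Ccr7- cells.

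Other genes of the pathway, listed by role, gave context for the members in the same contrast. Of the 14 NF-κB subunits, IκBs and IKKs that were tested, 5 rose and none fell; they include the inhibitors Nfkbib (log2 fold change 2.08 ± 0.20, edgeR adjusted p = 7.2e-06), Nfkbia (1.33 ± 0.16, adjusted p = 5.94e-05) and Nfkbie (1.66 ± 0.31, adjusted p = 0.00346) and the non-canonical subunit Nfkb2 (1.79 ± 0.36, adjusted p = 0.00588). Of 17 other TRAF complex and ubiquitin-editing genes, 3 rose and none fell: Tank, whose product binds TRAF proteins (2.84 ± 0.39), the ubiquitin ligase gene Birc2 (2.87 ± 0.81), and Tnip3, which encodes another A20-binding protein. Tnip3 averaged 417 ± 211 CPM in Ccr7+ and 23.8 ± 34.7 CPM in Ccr7- cells (SD, n = 13 plates). Of 13 receptors and their adaptors, Cd40 and Tnfrsf4 rose and Tlr11 fell. Cd40, through which T cells license dendritic cells, had a log2 fold change of 3.07 ± 0.56 (adjusted p = 0.00306). Tnfrsf4, which encodes the costimulatory receptor OX40, averaged 733 ± 287 CPM in Ccr7+ and 45.1 ± 65.8 CPM in Ccr7- cells, and Tlr11, a sensor of microbial protein, 39.8 ± 78.4 CPM in Ccr7+ and 114 ± 50.3 CPM in Ccr7- cells. Of 24 other NF-κB targets, 12 rose and none fell, among them Cd83 (1.39 ± 0.10), Cd86 (1.11 ± 0.16), Bcl2a1d (1.62 ± 0.21) and Ccl22. The chemokine gene Ccl22 averaged 1775 ± 960.1 CPM in Ccr7+ and 32.2 ± 61.4 CPM in Ccr7- cells. The medians were 0.67 for the subunits, -0.011 for the TRAF genes, -0.96 for the receptors and 2.01 for the targets, beside -1.1 for all genes. Of all 6308 genes tested, 157 were called higher (2.49%) and 285 lower (4.52%). The lists overlap, as Cd40 stands among both receptors and targets, and Ccl17 and Ccl22 among both targets and mature dendritic cell markers. Irf1, given separately below, is among the targets.

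The targeted transcript did not differ detectably in Ikbkb-deleted plates. In all cells Ikbkb had 239 ± 87.8 CPM (SD, n = 4; 111 to 308) in Ikbkb-deleted plates and 232 ± 84.5 CPM (n = 5; 96.8 to 311) in floxed plates, a log2 difference of 0.0040 ± 0.33 (edgeR adjusted p = 1). In Ccr7+ cells it had 285 ± 254 CPM (n = 3; 6.14 to 503) in Ikbkb-deleted and 423 ± 163 CPM (n = 5; 298 to 705) in floxed plates (-0.54 ± 0.78, adjusted p = 1), and the Ccr7 difference of Ikbkb was -1.77 ± 1.17 relative to floxed plates (interaction, adjusted p = 1). The UMIs tag the 5′ ends of transcripts and do not report exons lost further along, so these levels do not check the labels.

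No member passed the test between Ikbkb-deleted and floxed plates, in all cells or in either class. In all cells edgeR called 0 of 10 members and 0 of 11219 genes (0%), with 997 genes at an unadjusted p under 0.05. DESeq2 called 465 genes and limma-trend, with cells weighted equally, called 0; neither called a member. In 0 of 10 members did the groups fail to overlap, against 1.7% of all genes tested. Tnfaip3 had 69.7, 48.4, 40.8 and 22.2 CPM in Ikbkb-deleted plates, against 41.0, 106, 46.5 and 132 CPM in the Irf1_FF plates and 83.4 CPM in the Ikbkb_FF plate. The groups overlapped, the highest 3 plates were floxed, and the log2 fold change was -0.86 ± 0.54 (edgeR adjusted p = 0.950; 95% interval -2.01 to 0.29). Tnip1 had 34.3, 47.8, 24.9 and 84.3 CPM in Ikbkb-deleted plates, against 94.8, 148, 52.3 and 168 CPM in Irf1_FF plates and 43.8 CPM in the Ikbkb_FF plate, and its estimate was -1.12 ± 1.01 on the log2 scale (adjusted p = 1).

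Icam1 had 281, 126, 353 and 557 CPM in Ikbkb-deleted plates, against 431, 607, 521 and 437 CPM in Irf1_FF plates and 287 CPM in the Ikbkb_FF plate. Its log2 fold change was -0.50 ± 0.39 (edgeR adjusted p = 1), and the Ikbkb_FF plate lay within the range of the Ikbkb-deleted plates. Traf1 had 382, 253, 534 and 621 CPM in Ikbkb-deleted plates, against 223, 519, 436 and 413 CPM in Irf1_FF plates and 383 CPM in the Ikbkb_FF plate. Its log2 fold change of 0.15 had a 95% interval of -0.44 to 0.74, the narrowest of the members. Within experiment M2, against the Ikbkb_FF plate alone, the log2 fold changes were -0.88 for Tnfaip3, 0.13 for Tnip1, 0.20 for Icam1 and 0.22 for Traf1. The direction of Tnip1, Icam1, Map3k14, Nfkbiz, Tnfaip2 and Traf3 turned with the control used. That control plate is of 8 weeks, as are Ikbkb-deleted replicates 1 and 2, while replicates 3 and 4 are of 6 weeks. At 8 weeks Icam1 had 281 and 126 CPM in Ikbkb-deleted plates and 287 CPM in the Ikbkb_FF plate, and Traf1 382 and 253 CPM in Ikbkb-deleted plates and 383 CPM in the Ikbkb_FF plate, so the values above 0 within M2 rest on the plates of 6 weeks.

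The remaining members overlapped as well. Traf3 averaged 51.5 ± 29.4 CPM in Ikbkb-deleted plates (SD, n = 4) and 47.9 ± 13.1 CPM in floxed plates (n = 5). Map3k14 averaged 75.7 ± 50.0 CPM in Ikbkb-deleted and 49.8 ± 38.9 CPM in floxed plates, and Cyld 37.2 ± 41.5 CPM in Ikbkb-deleted and 52.3 ± 28.3 CPM in floxed plates. Tnip2 averaged 64.8 ± 59.0 CPM in Ikbkb-deleted and 77.8 ± 19.4 CPM in floxed plates, and Tnfaip2 9.86 ± 10.3 CPM in Ikbkb-deleted and 36.2 ± 28.1 CPM in floxed plates. Nfkbiz averaged 39.5 ± 16.9 CPM in Ikbkb-deleted and 43.3 ± 28.3 CPM in floxed plates. Of the 10 members, 3 had a log2 fold change above 0 and 7 below, with a median of -0.41 beside -0.18 for all genes; under upper-quartile factors, which moved the median gene by 0.147, Nfkbiz turned to 0.010. The fibroblast and endothelial markers summed to 71.2 to 833 CPM in Ikbkb-deleted and 54.7 to 7538 CPM in floxed plates, and the macrophage markers to 175 to 2623 CPM in Ikbkb-deleted and 163 to 3093 CPM in floxed plates; their part in these differences was not tested.

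The share of Ccr7+ cells, which could move a sum over all cells, did not differ detectably. It was 31.4% ± 12.6 (SD, n = 4) in Ikbkb-deleted and 29.3% ± 11.1 (n = 5) in floxed plates (two-sided exact permutation test of plate shares, p = 0.746; the smallest p the design allows is 0.0159). In Irf1-deleted plates it was 29.3% ± 7.84 (n = 5), against 30.7% ± 12.3 (n = 4) in Irf1 control plates (exact permutation p = 0.857). The sort gate can set these shares.

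Within Ccr7+ cells, edgeR called 0 of 10 members and 0 of 7896 genes (0%) between Ikbkb-deleted and floxed plates, with 602 at an unadjusted p under 0.05, while DESeq2 called 289 genes and no member. Groups that did not overlap were found for 0 of 10 members and 2.17% of genes. Tnfaip3 had 88.0, 108 and 29.8 CPM in the 3 Ikbkb-deleted plates with enough cells, against 139.7, 216, 103 and 559 CPM in Irf1_FF plates and 203 CPM in the Ikbkb_FF plate. The highest Ikbkb-deleted plate passed the lowest floxed plate by a few CPM, and the log2 fold change was -1.70 ± 0.99 (edgeR adjusted p = 0.750, unadjusted p = 0.101), or -1.43 within M2. In the Ikbkb_FF plate 1 of 8 Ccr7+ cells gave all 207 Tnfaip3 UMIs, and in the first Ikbkb-deleted plate 1 of 5 cells gave all 86. Traf1 had 749, 1134 and 1046 CPM in Ikbkb-deleted plates, against 786, 1039, 913 and 1395 CPM in Irf1_FF plates and 884 CPM in the Ikbkb_FF plate, a log2 fold change of -0.036 with a 95% interval of -0.76 to 0.69. Icam1 had 554, 508 and 929 CPM in Ikbkb-deleted plates, against 565, 1241, 809 and 1303 CPM in Irf1_FF plates and 254 CPM in the Ikbkb_FF plate (-0.32 ± 0.48, adjusted p = 1). Within M2 the estimates were 0.14 for Traf1 and 1.39 for Icam1, so the direction of both turned. That of Map3k14 (-0.193), Tnip1 (0.043) and Traf3 (-0.295) turned as well. Traf3 had 119.7, 135 and 112 CPM in Ikbkb-deleted plates, against 75.6, 75.4, 85.7 and 69.5 CPM in Irf1_FF plates and 150.0 CPM in the Ikbkb_FF plate, so the Ikbkb-deleted plates lay above the Irf1_FF plates and below the Ikbkb_FF plate (0.41 ± 1.52, adjusted p = 1). Of the other pathway lists, the 2 most abundant genes each are given, as none was called. The median log2 fold changes were -0.182 for the subunits, -0.185 for the TRAF genes and 0.296 for the receptors. The 26 tested targets had a median of -0.703, beside -0.084 for all genes, with 4 above 0 and 22 below. No set test was run. Nfkbia, the IκB gene that NF-κB itself induces, had a log2 fold change of -1.06 ± 0.28 in Ccr7+ cells (edgeR unadjusted p = 0.00108, adjusted p = 0.604). It was not low in this class alone, with -0.84 ± 0.23 in all cells (edgeR unadjusted p = 0.00232, adjusted p = 0.477). In Ccr7- cells it had -0.89 ± 0.30 (edgeR unadjusted p = 0.00921, adjusted p = 0.467). Within Ccr7+ cells the other genes had -0.15 ± 0.45 for Nfkbib, -0.045 ± 0.64 for Tax1bp1, -0.069 ± 0.56 for Tank and -0.13 ± 0.39 for Cd40. Tnfrsf4 had 0.30 ± 0.48, Cd83 -0.45 ± 0.25 and Ccl22 -0.74 ± 0.40. Scaled over both classes, Nfkbia had 797, 999.5 and 1339 CPM in Ikbkb-deleted plates, against 2060, 2380, 2027 and 3184 CPM in Irf1_FF plates and 1252 CPM in the Ikbkb_FF plate, and the Ikbkb_FF plate of the same experiment lay within the range of the Ikbkb-deleted plates. The other members had log2 fold changes of -1.27 ± 1.37 for Tnip1, -0.088 ± 1.71 for Tnip2, -0.68 ± 1.99 for Nfkbiz, 0.57 ± 1.36 for Map3k14, 1.01 ± 2.38 for Cyld and 0.87 ± 2.75 for Tnfaip2 (adjusted p = 1 for each). The 8 tested macrophage markers were all above 0 in this contrast, with a median of 6.09 and none called, and the list summed to 256 to 2206 CPM in Ikbkb-deleted and 1.67 to 472 CPM in floxed plates; its part in these differences was not tested.

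Within Ccr7- cells, edgeR called 0 of 10 members and 0 of 10545 genes (0%), with 968 at an unadjusted p under 0.05; DESeq2 called 465 genes and no member. The groups overlapped for all 10 members and failed to do so for 1.68% of genes. Tnip1 had 27.7, 0, 1.23 and 48.6 CPM in Ikbkb-deleted plates, against 71.1, 139, 73.2 and 93.6 CPM in Irf1_FF plates and 35.9 CPM in the Ikbkb_FF plate. One Ikbkb-deleted plate lay above the Ikbkb_FF plate and the other 3 below all floxed plates, and the log2 fold change was -2.08 ± 1.52 (edgeR adjusted p = 1). Icam1 averaged 213 ± 100.0 CPM (SD, n = 4) in Ikbkb-deleted and 316 ± 72.7 CPM (n = 5) in floxed plates, an estimate of -0.59 ± 0.44 on the log2 scale (adjusted p = 1). Within M2 the estimates were -0.89 for Tnip1 and -0.47 for Icam1. Those of Traf1 (-0.235), Map3k14 (-0.436), Nfkbiz (6.99) and Tnfaip2 (8.19) turned direction within M2. The Ccr7- cells of the Ikbkb_FF plate held 1 UMI of Nfkbiz and 0 of Tnfaip2. The other members had log2 fold changes of 0.33 ± 0.46 for Traf1, 0.54 ± 1.40 for Map3k14, -0.057 ± 1.61 for Tnfaip3, -0.60 ± 0.99 for Tnip2, -0.57 ± 1.44 for Nfkbiz, -0.27 ± 2.06 for Traf3, -0.66 ± 0.88 for Cyld and -2.55 ± 1.86 for Tnfaip2 (adjusted p = 1 for each). Of the 10 members 2 lay above 0 and 8 below, with a median of -0.58 beside -0.24 for all genes; under upper-quartile factors, which moved the median gene by 0.157, Tnfaip3 turned to 0.12. All 7 tested fibroblast and endothelial markers were below 0, and the list summed to 96.0 to 1324 CPM in Ikbkb-deleted and 64.5 to 8132 CPM in floxed plates; its part was not tested.

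**Figure D4:**
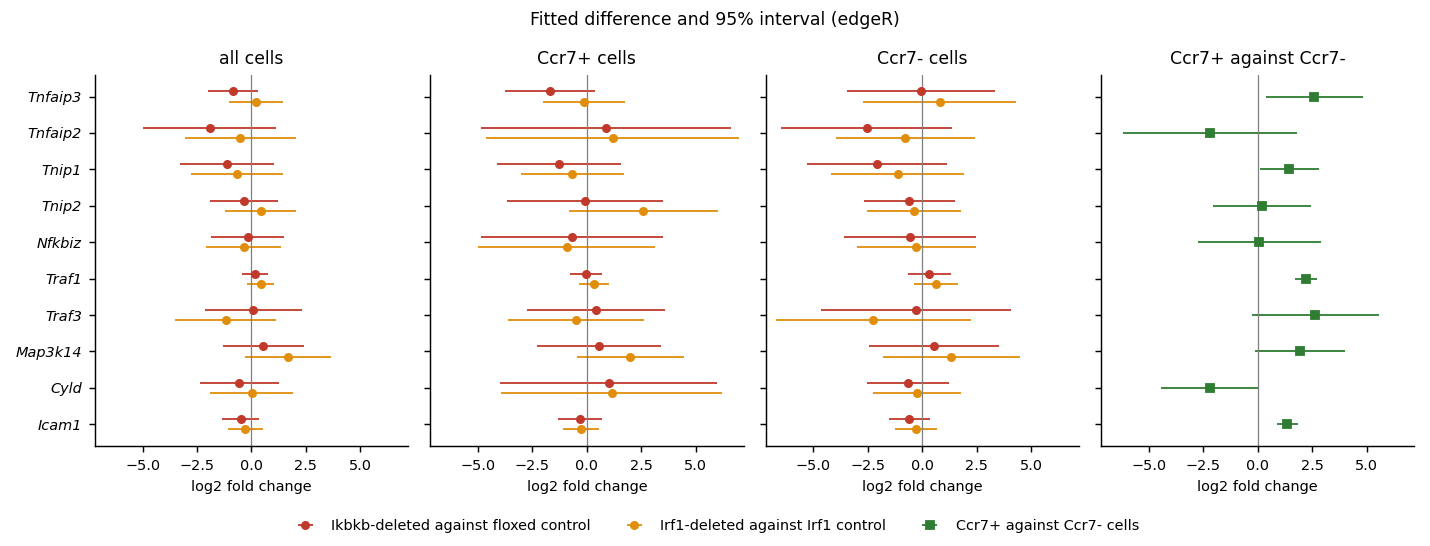
Fitted log2 fold change of each member (horizontal axis) with its 95% interval, for Ikbkb_dXCR1 against floxed plates (red) and Irf1_dXCR1 against Irf1_FF plates (orange) in all, Ccr7+ and Ccr7- cells, and for Ccr7+ against Ccr7- cells (green). All genotype intervals include 0, and in the right-hand panel the intervals of Traf1 (1.74 to 2.73) and Icam1 (0.88 to 1.83) lie farthest from it.

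Between Irf1-deleted and Irf1 control plates no member passed either. Irf1 itself had 228 ± 108 CPM (SD, n = 5; 98.2 to 337) in Irf1-deleted and 342 ± 100.1 CPM (n = 4; 200.4 to 435) in Irf1 control plates, a log2 difference of -0.59 ± 0.38 (edgeR adjusted p = 0.685), with the same limit of the 5′ tags. In all cells edgeR called 0 of 10 members and 0 of 16203 genes (0%), with 1272 at an unadjusted p under 0.05; DESeq2 called 100 genes and limma-trend 0, and neither called a member. The 2 groups were without overlap for 0 of 10 members and 1.24% of genes. Map3k14 had 181, 45.0, 144, 138 and 168 CPM in Irf1-deleted plates, against 28.0, 34.6, 100.7 and 6.4 CPM in Irf1 control plates. The groups overlapped by 1 plate on each side, and the log2 fold change was 1.67 ± 0.93 (adjusted p = 0.531, unadjusted p = 0.0919). Traf1 had 593, 573, 335, 590.5 and 578 CPM in Irf1-deleted plates, against 223, 519, 436 and 413 CPM in Irf1 control plates (0.43 ± 0.29, adjusted p = 0.774). Traf3 had 29.6, 0, 18.8, 35.6 and 17.1 CPM in Irf1-deleted plates, against 56.2, 60.4, 38.7 and 29.5 CPM in Irf1 control plates (-1.19 ± 1.10, adjusted p = 1). Icam1 averaged 410.2 ± 169 CPM in Irf1-deleted and 499 ± 82.8 CPM in Irf1 control plates, and Tnfaip3 94.8 ± 44.2 CPM in Irf1-deleted plates, where Irf1 control plates had 41.0, 106, 46.5 and 132 CPM; neither differed beyond its spread (-0.28 ± 0.38 for Icam1 and 0.22 ± 0.58 for Tnfaip3, adjusted p = 1). The other members had log2 fold changes of -0.65 ± 0.99 for Tnip1, 0.43 ± 0.77 for Tnip2, -0.36 ± 0.82 for Nfkbiz, 0.011 ± 0.90 for Cyld and -0.51 ± 1.19 for Tnfaip2 (adjusted p = 1 for each).

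Within Ccr7+ cells, Map3k14 had 322, 0, 494, 459 and 367 CPM in Irf1-deleted plates, against 68.7, 90.7, 160.4 and 9.39 CPM in Irf1 control plates. Apart from 1 plate at 0, every Irf1-deleted plate lay above every control plate, and the log2 fold change was 2.00 ± 1.22 (edgeR adjusted p = 0.450). Tnip2 had 139.9, 121, 415, 77.7 and 117 CPM in Irf1-deleted plates, against 0, 79.8, 34.5 and 0 CPM in Irf1 control plates (2.60 ± 1.70, adjusted p = 0.509). Traf1 had 1493, 1480, 592, 1563 and 1390 CPM in Irf1-deleted plates, against 786, 1039, 913 and 1395 CPM in Irf1 control plates (0.34 ± 0.34, adjusted p = 0.927). The other members had log2 fold changes of -0.29 ± 0.41 for Icam1, -0.12 ± 0.93 for Tnfaip3, -0.66 ± 1.16 for Tnip1, -0.93 ± 2.01 for Nfkbiz, -0.49 ± 1.55 for Traf3, 1.13 ± 2.50 for Cyld and 1.18 ± 2.86 for Tnfaip2 (adjusted p = 1 for each). Under upper-quartile factors the median log2 fold change over all genes was 0.703, against 0 under TMM, with a median shift per gene of 0.151. The members are to be read beside that displaced centre. On this scale Traf1 had 2.10 and Tnip2 4.0 (edgeR adjusted p = 0.272 for each). Tnfaip3 had 2.17, Icam1 0.83 and Nfkbiz 0.99, so these 3 turned, and none passed. Of the 10 tested macrophage markers 8 lay above 0 (median 4.03) and the list summed to 0.782 to 1757 CPM in Irf1-deleted and 1.67 to 330.1 CPM in Irf1 control plates. Of the 10 cDC1 markers 9 lay below 0 (median -0.83), with sums of 1423 to 2737 CPM in Irf1-deleted and 3179 to 4686 CPM in Irf1 control plates, and of the 10 dissociation stress genes 8 lay above 0 (median 1.15), with sums of 1539 to 2381 CPM in Irf1-deleted and 700.2 to 2761 CPM in Irf1 control plates. None of these markers was called, and their part in the members' differences was not tested. Here edgeR called 0 of 10 members and 0 of 11786 genes (0%), with 1409 at an unadjusted p under 0.05, and DESeq2 called 125 genes and no member; groups without overlap were found for 0 of 10 members and 0.882% of genes. Within Ccr7- cells it called 0 of 10 members and 0 of 15483 genes (0%), with 1292 at an unadjusted p under 0.05, and DESeq2 called 94 genes and no member. Tnip1 was the 1 member of 10 whose groups did not overlap there, as for 0.982% of the 15483 genes (0.4% with Irf1-deleted plates below), with 62.4, 0, 38.6, 46.6 and 67.3 CPM in Irf1-deleted plates, against 71.1, 139, 73.2 and 93.6 CPM in Irf1 control plates (-1.13 ± 1.45, adjusted p = 1). The other members had log2 fold changes of 0.64 ± 0.48 for Traf1, -0.28 ± 0.45 for Icam1, 1.33 ± 1.49 for Map3k14, 0.79 ± 1.66 for Tnfaip3, -2.24 ± 2.11 for Traf3, -0.39 ± 1.03 for Tnip2, -0.27 ± 1.3 for Nfkbiz, -0.23 ± 0.96 for Cyld and -0.77 ± 1.52 for Tnfaip2 (adjusted p = 0.879 for Traf1 and 1 for the others).

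The Ccr7 difference itself was compared between genotypes. In Traf1 it was 1.87 ± 0.50 (log2, SE) in 3 Ikbkb-deleted plates, 2.19 ± 0.39 in 5 Irf1-deleted plates and 2.50 ± 0.40 in 5 floxed plates. Within each group alone, the edgeR adjusted p was 0.383, 0.0162 and 0.0127 in that order. The difference of these differences was -0.63 ± 0.62 for Ikbkb-deleted and -0.31 ± 0.54 for Irf1-deleted against floxed plates (edgeR interaction test, adjusted p = 1 for both). In Icam1 the Ccr7 difference was 1.28 ± 0.47 in Ikbkb-deleted, 1.66 ± 0.37 in Irf1-deleted and 1.09 ± 0.38 in floxed plates. It passed in none of these groups alone (edgeR adjusted p = 0.682, 0.0594 and 0.251 in that order). The interaction of Icam1 was 0.19 ± 0.60 for Ikbkb-deleted and 0.56 ± 0.53 for Irf1-deleted plates. The other 8 members had interactions of -1.22 to 7.68 (SE 1.87 to 6.46) for Ikbkb-deleted and of -1.41 to 4.29 (SE 1.48 to 4.77) for Irf1-deleted plates, with an adjusted p of 1 for each. The interaction called 0 of 10 members and 0 of 6308 genes (0%) in either case, with 168 genes for Ikbkb-deleted and 128 for Irf1-deleted plates at an unadjusted p under 0.05. DESeq2 called 347 genes for Ikbkb-deleted and 173 for Irf1-deleted plates, and no member. Both interactions share the floxed plates.

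Over 26 sums, 1 per plate and class, the genes most like Traf1 among 4572 were Gyg and the chemokine gene Ccl22 (Pearson r of 0.901 and 0.9 on log2 CPM with 10 added). Icam1 was most like Cyfip1 (0.841) and Nfkbia (0.836), Tnfaip3 most like Cdkn1a (0.79) and Specc1 (0.787), and Traf3 most like Birc3 (0.731) and Med11 (0.715). Cyld was most like Mrps25 (0.892) and Rps18 (0.826). Among the members, Traf1 had an r of 0.682 with Tnfaip3 and 0.662 with Icam1, while Cyld had -0.632 with Tnfaip3. The points share plates and the Ccr7 split, so these values describe the sums and carry no p. Within Ccr7+ cells, Traf1 and Icam1 had a Spearman correlation of 0.443 over 170 cells, and within Ccr7- cells one of 0.265 over 385 cells, where the depth of each cell is shared by both counts.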

How the data were processed

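The labels' protocols describe sorting of 1 cell to a well and a template-switching step that adds a well barcode and a UMI of 5 bases at the transcripts' 5′ ends. The deposited table holds the authors' UMI counts as whole numbers, so a gene reaches at most 1024 counts in a cell (4 cells for Traf1 and 5 for Icam1 held 512 or more). Per the submitters' processing notes, the tools were bcl2fastq, STAR 2.5.3a and HTSeq 0.9.1 on build GRCm38; the sources used here give no settings. Plate, genotype and age come from the deposited cell annotation and matched the labels.

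UMI counts were summed per plate, over all cells, Ccr7+ cells (at least 1 Ccr7 UMI; 36 had under 10) or Ccr7- cells, and the plate was the replicate; replicate numbers follow accession order and pair nothing. No cell was removed and no doublet caller was run, as cells were sorted singly. Genes were kept by filterByExpr, normalized with TMM, and fitted in edgeR 4.0.16 (R 4.3.3) for its two-sided quasi-likelihood test, with Benjamini-Hochberg adjustment over all genes tested and a threshold of 0.05. CPM were computed within each set of sums, so levels of a class differ slightly between comparisons. Ccr7+ and Ccr7- cells were compared with the plate as a block in 13 plates with at least 5 cells of each class. Genotype fits shared 1 estimate of the spread over all groups, and the lone Ikbkb_FF plate is assumed to vary like the others. Intervals cover 95%. The fit of Ikbkb-deleted against floxed plates in all cells and that of Ccr7+ against Ccr7- cells were run on simulated counts. The other fits were not, and the simulation did not imitate sums that rest on few cells.

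The members, gene lists and tests were chosen with earlier results of these data known. All members are named in each comparison, the interaction excepted, where 8 are given as a range. Of each other pathway list, up to 4 called genes with the smallest p qualify for naming, or the 2 most abundant. Of the comparisons without calls, all these genes are given only for Ccr7+ cells of Ikbkb-deleted against floxed plates. That choice was made after seeing the value of Nfkbia, which alone is also given for all cells and Ccr7- cells. The list medians there were added after seeing their values. Levels of Tnip3, Tnfrsf4, Tlr11 and Ccl22 were given after seeing their values. The alternatives comprised DESeq2 1.42.0, limma-trend 3.58.1, upper-quartile factors, no filter, other cell minimums, other Ccr7 thresholds, other controls, cells with dendritic cell markers only, no plate block, and each plate left out. Chosen after seeing the data were Ccr7+ from 100 UMIs, only mice of 6 weeks, and, between genotypes, only Ccr7- cells with Xcr1 or Clec9a. Gene starts are from RefSeq (GRCm38.p6).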

Additional observations from a re-analysis of the deposited data

Results flagged for a closer look

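For 6 of the 80 sets of plates examined (each member, in all, Ccr7+ and Ccr7- cells, in each genotype with 4 or 5 plates), 1 plate stood far from the others of its group. For independent, normally distributed values the rule would set apart about 1 in 20 such sets. Many values here are 0 or rest on few cells, and the sets share cells, so that rate need not hold for them. Traf1 was low in 1 Irf1-deleted plate (replicate 3), with 335 CPM in all cells and 592 CPM in Ccr7+ cells, where the next lowest Irf1-deleted plates had 573 and 1390 CPM. The same plate was high for Tnip2 in Ccr7+ cells, with 415 CPM beside a next highest of 139.9 CPM. Map3k14 stood at 1.18 CPM in all cells of Ikbkb-deleted replicate 1, where the other Ikbkb-deleted plates had 96.1 CPM or more. Tnfaip2 stood at 43.7 CPM in the Ccr7+ cells of 1 Irf1 control plate, the others being at 0, and at 29.2 CPM in the Ccr7- cells of Ikbkb-deleted replicate 3, where the next had 3.25 CPM.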

How the results depend on the processing

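Over 1599 alternative values of a member's log2 fold change, 1593 kept their side of the threshold, 6 newly passed and 0 lost a call; 125 changed sign with no call on either side. The 6 all lie in the Ccr7+ against Ccr7- comparison: 5 under DESeq2, which brought the members called to 7, and Map3k14 with at least 10 cells per class. With each plate left out, that comparison called 2 members every time and 295 to 445 genes. Genes called there numbered 2409 by DESeq2, 1287 with Ccr7+ from 10 UMIs, 1049 with Ccr7+ from 100 UMIs, 229 against Ccr7- cells with Xcr1 or Clec9a, and 197 without the plate block.

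No member was called between genotypes under any alternative run, while 0 genes under edgeR became several. DESeq2 called 465 genes for Ikbkb-deleted plates in all cells, 289 in Ccr7+ and 465 in Ccr7- cells, 100, 125 and 94 for Irf1-deleted plates in the same order, and 347 and 173 for the interactions of Ikbkb-deleted and Irf1-deleted plates. For Ikbkb-deleted plates, the Irf1_FF plates alone as control gave 4 genes in all cells and 4 in Ccr7- cells, the Ikbkb_FF plate alone 17 in Ccr7+ and 2 in Ccr7- cells, and mice of 6 weeks alone 1 in all cells. Without a filter, 3 (Ikbkb) and 7 (Irf1) genes were called in Ccr7+ cells, and 1 and 2 by the interactions. With at least 10 cells per class, 1 (Ikbkb) and 2 (Irf1) were called in Ccr7+ cells; for Irf1, upper-quartile factors gave 71 and Ccr7+ from 10 UMIs 4. The cause was not tested.

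With each plate left out, genes called for Ikbkb-deleted plates ranged from 0 to 4 in all and Ccr7- cells and from 0 to 2 in Ccr7+ cells, for Irf1-deleted plates from 0 to 8 in Ccr7+ cells and 0 to 0 in all and Ccr7- cells, and for either interaction from 0 to 1. The difference in the share of Ccr7+ cells ranged from -1.72 to 7.53 percentage points for Ikbkb-deleted and from -6.94 to 2.38 for Irf1-deleted plates. No paired analysis was possible because the labels give no replicate numbers that genotypes share. Low counts limit all members but Traf1 and Icam1. In plates with any, Tnfaip2, Nfkbiz, Traf3, Cyld and Tnip2 were found in a median of 1 to 2.5 Ccr7+ cells. In Ccr7- cells their medians were 2 to 4.5 cells. Tnfaip3, Tnip1 and Map3k14 had medians of 3 to 4 Ccr7+ cells and 3 to 5.5 Ccr7- cells.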

Other observations

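Irf1, the other factor targeted in this study, itself rose in Ccr7+ cells, with a log2 fold change of 1.81 ± 0.27 against Ccr7- cells of the same plates (edgeR adjusted p = 0.000391). Ikbkb averaged 439 ± 187 CPM in Ccr7+ and 209 ± 64.0 CPM in Ccr7- cells (SD, n = 13 plates), higher in 12 of 13 plates, and did not pass (0.94 ± 0.41, adjusted p = 0.163). Of 10 immediate-early and heat-shock genes of the dissociation response, 2 fell in Ccr7+ cells and none rose. Of 10 cDC1 markers, 1 fell and none rose, and of 11 tested markers of mature dendritic cells 8 rose and none fell, Ccr7 among them as the gene that split the cells.

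Among members not given above, Tnfaip2 was most like Rdx (Pearson r of 0.844 over 26 sums), Map3k14 most like Gm5424 (0.776) and Ass1 (0.736), Tnip2 most like Lrrfip1 (0.768), Tnip1 had an r of 0.732 with Arhgap22, and Nfkbiz one of 0.707 with Fto. These sums share plates and the Ccr7 split, and the values are descriptions.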
